A study of Mus musculus with 20 samples.

Results

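Contactins and contactin-associated proteins, 10 genes of 37607 gene rows in the bulk table, were followed across mouse subiculum pyramidal cells of 4 projection populations. The members were taken by symbol (Cntn1, Cntn3, Cntn4, Cntn5, Cntn6, Cntnap1, Cntnap2, Cntnap4, Cntnap5a and Cntnap5b). They were matched to the bulk table through their Ensembl identifiers, with no use of their values in the matching. The list itself was chosen with earlier results of these data known. Most fibres that leave the hippocampus do so through the subiculum. Bulk libraries were made from neurons projecting to NA, PFC, RSC or VHN, with 3 biological replicates for each target and no treatment, strain, age or genotype given in the labels. The labels leave these names short; by custom NA is nucleus accumbens, PFC is prefrontal cortex and RSC is retrosplenial cortex, and no meaning is assumed for VHN. Fluorescent neurons were picked by hand from microdissected slices, and how they were made fluorescent is not given in the sources used here. Single subiculum pyramidal cells were also sequenced in 384 wells of 4 plates. The 8 single-cell labels could not be tied to the plates, so the wells count as 1 pooled sample without a test.

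Contactins are cell adhesion molecules of the immunoglobulin superfamily that are tied to the outer membrane by a lipid (GPI) anchor. Contactin-associated proteins, or Casprs, are neurexin-like transmembrane proteins, and both families bind in pairs on the same axon. Contactin 1 with Caspr (Cntnap1) forms the axonal side of the paranodal junction beside the node of Ranvier, whereas contactin 2 with Caspr2 (Cntnap2) gathers Kv1 potassium channels in the juxtaparanode next to it.

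Among the 10 members, 5 differed between NA and PFC cells as one side and RSC and VHN cells as the other. This division of the populations was already known from earlier results on these data. Its calls and p-values are therefore a description, not a test set in advance. Cntn1, Cntn3 and Cntnap2 were higher in NA and PFC cells, and Cntn4 and Cntnap5a were lower there. The share of all 13916 tested genes called in this comparison was 14.2% (edgeR quasi-likelihood test, Benjamini-Hochberg adjusted p under 0.05), with 7.58% higher and 6.66% lower. All 10 members passed the filter on low counts. The median log2 fold change was -0.26 over the 10 members and 0.01 over all genes. In the test of any difference among the 4 populations, Cntn1, Cntn4, Cntnap2 and Cntnap5a passed, which is 4 of 10 members beside 8.93% of all genes. In bulk RNA, fewer cells of a type and less RNA per cell cannot be told apart, and the p-values measure the spread between these libraries.

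Promoter sequence is shown for 3 genes whose libraries did not overlap between the pairs of populations (Cntn1, Cntn4 and Cntnap2), so that the start regions of 2 genes higher in NA and PFC cells and of 1 lower gene can be read beside the values. Each line holds 250 bases before to 50 bases after an annotated start in RefSeq on build GRCm38.p6, plus strand, 5′ to 3′. Capitals mark CANNTG and GGGCGG, searched on both strands. The promoter table matched 7 of the 10 members, all but Cntnap1, Cntnap4 and Cntnap5a. The table lists 3 starts for Cntn1 and 2 for Cntn4, of which the outermost is shown. For Cntnap2 the outer start and a start deep inside the gene are both given. The Cntn1 window is chr15:92050915-92051214, that of Cntn4 is chr6:106118515-106118814, and those of Cntnap2 are chr6:45059811-45060110 and chr6:47244146-47244445.
Cntn1: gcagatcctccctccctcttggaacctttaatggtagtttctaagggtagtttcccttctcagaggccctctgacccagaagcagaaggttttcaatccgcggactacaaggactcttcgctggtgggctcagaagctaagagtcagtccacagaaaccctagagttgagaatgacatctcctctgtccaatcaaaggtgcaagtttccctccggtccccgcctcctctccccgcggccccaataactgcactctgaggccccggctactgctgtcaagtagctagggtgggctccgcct
Cntn4: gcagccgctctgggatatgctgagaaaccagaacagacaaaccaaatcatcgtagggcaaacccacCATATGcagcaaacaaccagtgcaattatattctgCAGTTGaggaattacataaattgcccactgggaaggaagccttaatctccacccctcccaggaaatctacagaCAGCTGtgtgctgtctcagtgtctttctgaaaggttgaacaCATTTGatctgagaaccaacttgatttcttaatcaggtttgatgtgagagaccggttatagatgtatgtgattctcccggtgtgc
Cntnap2 outer start: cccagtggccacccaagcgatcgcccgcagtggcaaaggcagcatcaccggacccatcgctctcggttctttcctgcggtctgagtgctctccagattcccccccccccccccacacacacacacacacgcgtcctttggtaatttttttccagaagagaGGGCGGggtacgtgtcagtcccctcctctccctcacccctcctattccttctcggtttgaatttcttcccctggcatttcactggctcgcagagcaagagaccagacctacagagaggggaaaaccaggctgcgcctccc
Cntnap2 inner start: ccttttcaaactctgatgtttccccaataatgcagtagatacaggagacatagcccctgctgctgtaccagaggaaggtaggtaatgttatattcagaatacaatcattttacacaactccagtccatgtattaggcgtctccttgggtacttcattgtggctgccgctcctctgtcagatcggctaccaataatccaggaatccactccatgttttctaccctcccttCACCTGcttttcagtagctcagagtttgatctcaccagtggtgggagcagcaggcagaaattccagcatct

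The Cntn4 window held 4 matches to CANNTG, a short palindromic motif known as the E-box, and the window of the outer Cntnap2 start and that of Cntn1 held 0. The inner Cntnap2 window held 1, the other Cntn4 window 3, and the other Cntn1 windows 1 and 0. GGGCGG, known as the GC box, was found once in the outer Cntnap2 window and in none of the Cntn1 and Cntn4 windows. Over 32851 promoters of this length, 72.3% held a CANNTG and 35.7% a GGGCGG. CpG dinucleotides numbered 14 at the outer Cntnap2 start, 9 at Cntn1, 4 at Cntn4 and 3 at the inner Cntnap2 start, beside a median of 7 over all promoters. The other Cntn4 window held 12 and the other Cntn1 windows 5 and 4. A match describes the letters of the window and is not a binding site.

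Depth ranged from 10777273 to 20904126 gene fragments per bulk library. The 6 pyramidal cell markers were above 0 in every library. They summed to 2970 to 4372 CPM (a gene's fragments as a share of the scaled library total) in NA and PFC libraries and to 2104 to 2408 CPM in RSC and VHN libraries, without overlap, and the part of this difference in the members' values was not tested. Slc17a6 ran the other way, from 37.9 to 174.3 CPM in the former and from 289.8 to 536.1 CPM in the latter. Libraries stood apart in interneuron markers: the 10 genes summed to 64.0 CPM in RSC replicate 2, 259.2 CPM in RSC replicate 3 and 186.7 CPM in VHN replicate 3, against 0.156 to 14.0 CPM elsewhere. Oligodendrocyte markers, which bear on genes of the myelinated axon, summed to 42.7 to 167.6 CPM. The highest sums of microglial and oligodendrocyte precursor markers were 1.05 and 1.78 CPM. Astrocyte markers summed to 1.49 to 29.4 CPM, and of the 4 endothelial and mural markers only Rgs5 was above 0 in more than 2 libraries. Rgs5 read 23.8 to 91.7 CPM in NA and PFC libraries and 1.31 to 21.5 CPM in RSC and VHN libraries, while Cldn5 was at 0 in all 12.

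Per transcript length, Cntn1 was the most abundant member. Its mean over the 12 libraries was 162.7 FPKM, the authors' unit that divides fragments by transcript length and library size, with a range of 94.9 to 264. Cntn4, Cntnap2, Cntnap5b, Cntnap5a and Cntnap1 followed with means of 35.8, 32.7, 31.3, 31.2 and 29.9 FPKM, and the ranges of these 5 genes over the libraries overlapped. Cntn3 averaged 13.4 FPKM and Cntn6 7.13 FPKM, also with overlapping ranges. Cntnap4 and Cntn5 were lowest, at 1.47 and 0.398 FPKM.

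**Figure D1:**
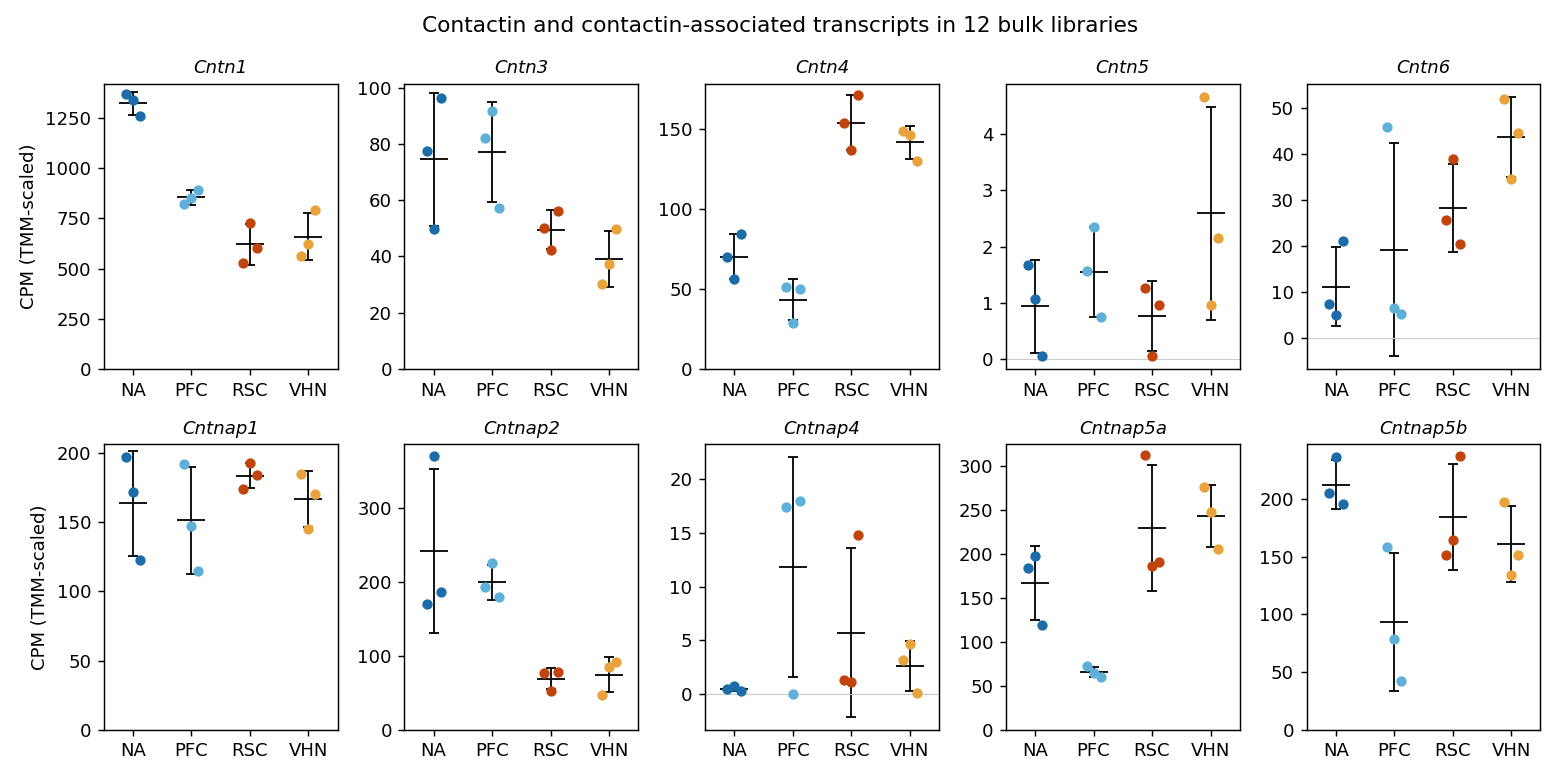
Level of each member (CPM scaled by TMM, y axis starting at 0 or below) in each of the 3 libraries of the populations NA, PFC, RSC and VHN; points are libraries, horizontal lines are means and bars are the SD. Cntn1 and Cntnap2 sit higher in NA and PFC, Cntn4 sits higher in RSC and VHN, and Cntnap5a is lowest in PFC.

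Cntn1, the contactin of the paranodal junction, was highest in NA cells. Its libraries read 1368, 1340 and 1261 CPM in NA and 819.6, 850.2 and 893.1 CPM in PFC. They read 529, 727.7 and 603.5 CPM in RSC and 562.2, 624.4 and 792.6 CPM in VHN. Every NA library was above every other library, and every PFC library was above every RSC and VHN library, while RSC and VHN overlapped. NA and PFC together exceeded RSC and VHN together by a log2 fold change of 0.73 (SE 0.111, adjusted p = 0.000316, edgeR). Population by population, NA exceeded RSC by 1.09 (adjusted p = 0.000714) and VHN by 1.0 (adjusted p = 0.00317) on the log2 scale. The difference of 0.63 between NA and PFC missed the threshold (adjusted p = 0.0957), as did those between PFC and RSC (0.46, adjusted p = 0.0761) and between PFC and VHN (0.37, adjusted p = 0.203).

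Its partner Cntnap1, the Caspr of the paranode, did not follow that order. Cntnap1 read 197.1, 172.1 and 122.5 CPM in NA, 192.3, 147 and 114.9 CPM in PFC, 174.4, 192.8 and 183.9 CPM in RSC and 185, 145.4 and 170.3 CPM in VHN. The 4 populations overlapped, with a log2 fold change of -0.15 (SE 0.171, adjusted p = 0.615, edgeR) for NA and PFC against RSC and VHN. Its population means lay within 1.21-fold of each other, against 2.13-fold for Cntn1. Exons of Cntnap1 share 3.97% of their bases with Plekhh3 on the other strand, and whether reads were counted by strand is not given in the sources used here. Cntn5 (6.4%) and Cntnap4 (8.01%) likewise share exon bases with annotated antisense genes, so the values of these 3 members carry that uncertainty.

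Cntnap2, the Caspr of the Kv1 juxtaparanode, had the largest increase among the members in NA and PFC cells. The NA libraries read 169.6, 369.2 and 186.3 CPM and the PFC libraries 193.3, 225.1 and 178.7 CPM. The RSC libraries read 76.3, 52.6 and 78.0 CPM and the VHN libraries 47.1, 85.1 and 90.9 CPM. The lowest NA or PFC library was well above the highest RSC or VHN library, and NA replicate 2 stood above the rest of its group. The log2 fold change was 1.61 (SE 0.229, adjusted p = 0.000179, edgeR). Cntnap2 passed in NA against RSC (1.81, adjusted p = 0.00302), NA against VHN (1.70, adjusted p = 0.0091), PFC against RSC (1.53, adjusted p = 0.00626) and PFC against VHN (1.42, adjusted p = 0.0159). Without VHN replicate 1 both comparisons with VHN missed the threshold (adjusted p = 0.0542 and 0.0849), and without PFC replicate 2 that of PFC with VHN did (0.0594).

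Cntn2, the contactin that pairs with Caspr2, is outside the 10 members and was set beside it. In NA its mean was 72.5 ± 33.1 CPM (SD, n = 3), and PFC followed with 22.7 ± 10.9, RSC with 50.2 ± 7.61 and VHN with 61.7 ± 7.75 CPM. The NA and PFC libraries of Cntn2 did not overlap, but the log2 difference of 1.68 missed the threshold (adjusted p = 0.0996, edgeR). For NA and PFC against RSC and VHN its log2 fold change was -0.46 (adjusted p = 0.341).

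**Figure D2:**
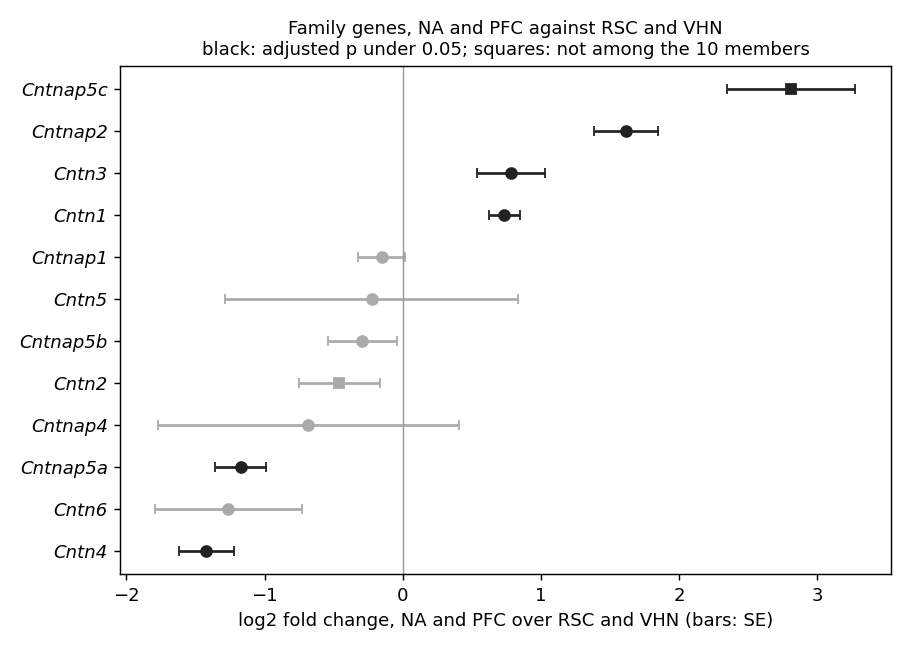
Log2 fold change of NA and PFC over RSC and VHN (x axis) for the 10 members (circles) and for Cntn2 and Cntnap5c (squares), with bars of 1 SE; black marks an adjusted p under 0.05. Cntnap5c, Cntnap2, Cntn3 and Cntn1 lie to the right, and Cntn4 and Cntnap5a to the left.

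Cntn4, a neuronal contactin known to bind amyloid precursor protein and the phosphatase Ptprg, ran the other way. It read 69.7, 56.3 and 84.5 CPM in NA and 51.5, 28.7 and 49.8 CPM in PFC. In RSC it read 153.8, 137.2 and 171.3 CPM, and in VHN 149.1, 146.1 and 129.8 CPM. All RSC and VHN libraries were above all NA and PFC libraries, and each NA library was above each PFC library. The log2 fold change of NA and PFC over RSC and VHN was -1.42 (SE 0.198, adjusted p = 0.000155, edgeR). Cntn4 passed in PFC against RSC (-1.83, adjusted p = 0.000618), PFC against VHN (-1.71, adjusted p = 0.0018) and NA against RSC (-1.13, adjusted p = 0.0222). The call against RSC was lost without NA replicate 1 (adjusted p = 0.0613), NA replicate 2 (0.0585), RSC replicate 1 (0.0826), RSC replicate 2 (0.0538) or RSC replicate 3 (0.0961). NA against VHN missed the threshold (-1.01, adjusted p = 0.061), and so did NA against PFC (0.70, adjusted p = 0.286). With the 3 libraries that carried interneuron markers left out, RSC replicate 1 was alone in its group and the log2 fold change between the pairs was -1.44.

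Cntn3, a close relative of Cntn4, showed the opposite sign with a smaller margin. It read 77.5, 49.7 and 96.4 CPM in NA, 82.3, 91.9 and 57.3 CPM in PFC, 50.1, 42.3 and 56.2 CPM in RSC and 30.1, 37.5 and 49.8 CPM in VHN. NA replicate 2 fell among the RSC libraries, so the pairs overlapped. The log2 fold change was 0.79 (SE 0.247, adjusted p = 0.0423, edgeR). That call was lost in 15 of 21 alternative settings (adjusted p 0.00545 to 0.234). Leaving out any single library other than NA replicate 2, PFC replicate 3 or VHN replicate 3 lost it.

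Cntn6, known for its binding to Chl1 and Notch, was low and uneven. It read 7.39, 5.03 and 21.0 CPM in NA, 46.0, 6.51 and 5.25 CPM in PFC, 25.6, 38.9 and 20.4 CPM in RSC and 52.0, 34.6 and 44.6 CPM in VHN. A single PFC library, replicate 1, lay among the VHN libraries, and the other 2 were below all of RSC and VHN. The log2 fold change of -1.26 (SE 0.529) missed the threshold (adjusted p = 0.129, edgeR). Without PFC replicate 1 it was -2.12 and passed (adjusted p = 0.00653). Cntn5 was near the limit of detection, between 0.0521 and 4.67 CPM. Its log2 fold change was -0.23 (SE 1.06, adjusted p = 0.917), and a difference of that size was not detectable at this depth.

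Cntnap5a, Cntnap5b and Cntnap5c are the mouse copies of Caspr5, a family member of which less is known. Cntnap5a set PFC cells apart. Its PFC libraries read 72.3, 64.7 and 60.2 CPM, whereas NA read 184.3, 197.7 and 119.1 CPM, RSC 312.2, 186 and 191.1 CPM and VHN 275.9, 247.4 and 205.7 CPM. All PFC libraries were below every other library, and NA and RSC overlapped. The log2 fold change of NA and PFC over RSC and VHN was -1.17 (SE 0.183, adjusted p = 0.00039, edgeR). Taken singly, PFC was lower than RSC by a log2 fold change of -1.81 (adjusted p = 0.000356) and than VHN by -1.89 (adjusted p = 0.000557), while NA against RSC (-0.46, adjusted p = 0.322) and NA against VHN (-0.54, adjusted p = 0.286) missed the threshold. NA exceeded PFC by 1.35 (adjusted p = 0.0316), a call that was lost when NA replicate 1 (adjusted p = 0.0833), NA replicate 2 (0.0712), PFC replicate 1 (0.0592), PFC replicate 2 (0.105), PFC replicate 3 (0.0956) or VHN replicate 2 (0.0582) was left out.

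Cntnap5b also had its lowest mean in PFC, without a call. PFC read 159, 78.6 and 42.0 CPM, against 205.8, 236.4 and 195.7 CPM in NA, 152, 164.4 and 237.5 CPM in RSC and 197.8, 134.2 and 151.6 CPM in VHN. The comparison of NA with PFC gave a log2 difference of 1.19 (SE 0.359, adjusted p = 0.17, edgeR), although their libraries did not overlap. Cntnap5c, outside the 10 members, went the opposite way to Cntnap5a. It averaged 58.3 CPM in NA and PFC libraries and 9.66 CPM in RSC and VHN libraries, with no overlap (log2 fold change 2.81, SE 0.465, adjusted p = 0.000611). The transcripts of these 3 genes share between 0.496% and 1.39% of their 50-base stretches, and no other pair of the family genes named here shares any. How reads common to 2 copies were counted is not given in the sources used here.

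Cntnap4, known from studies of interneuron synapses and dopamine release, was above 10 CPM in 3 libraries. It read 0.435, 0.75 and 0.313 CPM in NA, 17.4, 0 and 18.0 CPM in PFC, 1.33, 1.10 and 14.8 CPM in RSC and 3.15, 4.64 and 0.117 CPM in VHN. Those libraries were PFC replicates 1 and 3 and RSC replicate 3. Interneuron markers summed to 0.606 and 0.843 CPM in those PFC replicates and to 259.2 CPM in RSC replicate 3. The part of interneuron RNA in the Cntnap4 values was not tested. Its log2 fold change of -0.68 (SE 1.09) missed the threshold (adjusted p = 0.739, edgeR). The arithmetic means ran the other way, with 6.15 CPM in NA and PFC libraries and 4.18 CPM in RSC and VHN libraries. The fold change averages the populations on the log scale, where the NA mean of 0.499 CPM weighs as much as the PFC mean of 11.8 CPM. The direction of Cntnap4 is therefore not settled. Cntnap3, outside the members, read 7.05 CPM in VHN replicate 3, one of the libraries with interneuron markers, and at most 0.315 CPM in the other libraries, and it did not pass the filter; the part of interneuron RNA in that value was not tested.

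The 6 single comparisons of populations differed in how many members they called. NA against RSC called 3 members (Cntn1, Cntn4 and Cntnap2) beside 5.82% of all genes, and NA against VHN called 2 (Cntn1 and Cntnap2) beside 2.75%. PFC against RSC called 3 (Cntn4, Cntnap2 and Cntnap5a) beside 9.77%, and PFC against VHN called 3 (Cntn4, Cntnap2 and Cntnap5a) beside 5.08%. These comparisons share libraries, so their counts do not stand independently. NA against PFC called 1 member (Cntnap5a) beside 0.438% of all genes. RSC against VHN called 0 members and 0% of all genes with edgeR. With edgeR, 721 genes and 0 members had an unadjusted p under 0.05, and DESeq2 called 59 genes and 0 members.

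Known binding partners, listed with other genes of the same axonal structures and complexes, were counted in the comparison of NA and PFC against RSC and VHN. The background is the 14.2% given above. Of 13 axonal and nodal partners, 2 were higher and 2 lower. Nrcam, a nodal adhesion molecule, averaged 1017 CPM on the NA and PFC side and 753.9 CPM on the other (log2 fold change 0.43, adjusted p = 0.00526, edgeR). Epb41l2, a band 4.1 protein, averaged 14.8 against 2.27 CPM (adjusted p = 0.0327). Ank3 encodes the ankyrin of the axon initial segment and node. It was lower on that side as a whole (671.7 against 816.2 CPM, log2 fold change -0.32, adjusted p = 0.0445), and so was Epb41 (7.18 against 21.4 CPM, adjusted p = 0.0372). Libraries of the sides overlapped for both genes. The low Ank3 mean was that of PFC (502.9 CPM), called below NA (adjusted p = 0.0341), RSC (0.00179) and VHN (0.0326). No Ank3 call was made between NA, whose mean was 840.5 CPM, and either RSC (-0.08) or VHN (0.18). For Epb41 the sole call between single populations put PFC below RSC (adjusted p = 0.0276). None of the 13 was called with limma on log2(FPKM + 1), where the background was 12.7% of genes. Leaving out the 3 libraries that carried interneuron markers left RSC replicate 1 alone in its group, so that count is not given. The count was 1 without RSC replicate 1, RSC replicate 3, VHN replicate 1, VHN replicate 2 or VHN replicate 3 singly (background 10.1% to 10.8%). It was 2 without PFC replicate 1, 2 or 3 or RSC replicate 2 (background 10.5% to 12.3%).

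Of 14 genes of the Kv1 complex, 3 were higher and 1 was lower in NA and PFC cells. Lgi1, a secreted protein that binds Adam22, averaged 515.6 CPM on the NA and PFC side and 178.5 CPM on the other (log2 fold change 1.55, adjusted p = 0.000165, edgeR). Kcna4, a Kv1 channel subunit, averaged 63.6 and 5.91 CPM (log2 fold change 3.33, adjusted p = 0.00432). The subunit gene Kcna2 was lower (169.9 against 286.9 CPM, -0.79, adjusted p = 0.0217), although libraries of the sides overlapped. Its sole call between single populations put PFC, with a mean of 125.3 CPM, below RSC (-1.42, adjusted p = 0.00783). The NA mean of 214.4 CPM was called below neither RSC (335.9 CPM) nor VHN (237.8 CPM). Dlg2, a scaffold protein, averaged 346.4 and 235 CPM (0.56, adjusted p = 0.0382). Without RSC replicate 2 alone, 2 of the 14 were called (background 10.5%). Without the 3 libraries with interneuron markers, RSC replicate 1 was alone in its group, so the count called is not given.

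Of 13 tested genes listed as or with ligands and co-receptors of contactins, 7 were higher in NA and PFC cells and 0 were lower. The median log2 fold change was 0.71 beside 0.01 over all genes. Ptprz1, a receptor phosphatase that binds contactin 1, averaged 47.4 and 12.3 CPM (log2 fold change 1.94, adjusted p = 0.000995, edgeR). The amyloid precursor relatives Aplp1 (844.8 against 508 CPM, 0.74, adjusted p = 0.000836) and Aplp2 (440.1 against 267 CPM, 0.69, adjusted p = 0.00423) were higher. Notch2 averaged 7.45 CPM on the NA and PFC side and 0.0572 CPM on the other (adjusted p = 0.0012). The other 3 were Chl1 (0.71, adjusted p = 0.00655), the matrix protein gene Tnr (1.25, adjusted p = 0.0103) and Ptprg (0.87, adjusted p = 0.0172). Without the 3 libraries with interneuron markers, RSC replicate 1 was alone in its group, so the count called is not given. The mural marker Rgs5 was also higher in NA and PFC libraries, whereas Cldn5 was at 0 in all 12 and Flt1 and Pecam1 were at 0 in 10 of 12.

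The genes whose levels ran most like those of Cntn1 over the 12 libraries, by Pearson correlation of log2(CPM + 1) among 13294 genes, were Cdr1 (r = 0.959), Lrrn1 (0.935) and Eid1 (0.934). Those most like Cntnap5a were Pnkd (0.952), Dync1h1 (0.948) and Rap1gap2 (0.948). These values describe 12 libraries of 4 groups, and libraries of a group share their source. The Cdr1 locus is also transcribed on the other strand, so its value is uncertain.

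The deposited FPKM values did not scale with fragment counts in the same way for each member. FPKM per unit of CPM varied by 0.107% for Cntnap1 (coefficient of variation over 12 libraries) and by 0.549% for Cntnap5b, and by 22.4% for Cntnap2 and 13.5% for Cntn4. The median over 5937 genes was 8.18%. For this quotient CPM was a share of the unscaled library total. Each library was then divided by its median quotient over those genes, taken relative to each gene's own median. For Cntnap2 the quotient ranged from 0.139 in PFC replicate 3 to 0.330 in VHN replicate 1. It averaged 0.213 ± 0.0435 (SD, n = 6) over NA and PFC libraries and 0.258 ± 0.0551 over the other 6. On log2(FPKM + 1) the fold change of Cntnap2 was 1.29 (adjusted p = 0.00381, limma) in place of 1.61, and that of Cntn4 -1.57 (adjusted p = 0.000206) in place of -1.42. The cause of the uneven quotient was not tested.

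**Figure D3:**
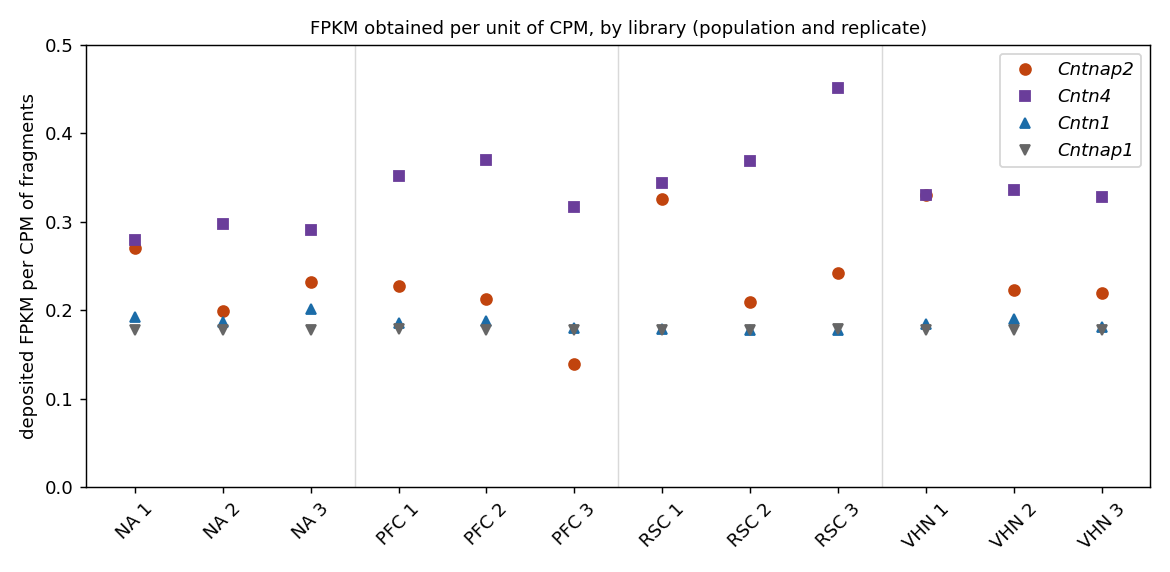
Deposited FPKM divided by CPM (y axis) in each of the 12 libraries (x axis, population and replicate) for Cntnap2, Cntn4, Cntn1 and Cntnap1. CPM here is a share of the unscaled library total, and the quotients of each library were divided by their typical relative value over genes. Cntnap1 stays at 0.178 to 0.179, whereas Cntnap2 ranges from 0.139 to 0.330.

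Of 384 single wells, 348 passed the minimum of 1000 detected genes, and their counts ran from 2795 to 322542 around a median of 112401. Of these 348 wells, 327 held counts of the glutamatergic transporter genes Slc17a7 or Slc17a6 and 3 held Gad1 or Gad2. Cntn1 was found in 94.8% of wells (exact 95% binomial interval 91.9% to 96.9%), with a mean of 658.8 CPM. Cntnap1 followed with 72.7% (67.7% to 77.3%), then Cntnap2 with 56.9% (51.5% to 62.2%) and Cntnap5a with 56.0% (50.6% to 61.3%). The intervals of Cntnap2 and Cntnap5a overlapped almost wholly. Cntn4 was found in 40.5%, Cntnap5b in 29.0%, Cntn5 in 21.3%, Cntn3 in 20.7% and Cntn6 in 12.9% of wells. A well held a median of 4 of the 10 members, with a range of 0 to 9. These intervals cover counting error only.

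Cntnap4 was the rarest member, in 16 wells (4.6%, exact interval 2.65% to 7.36%), with plate shares of 0% to 11.1%. Where it had a count, its median was 108.4 CPM, and 1 of the 16 wells also held Gad1 or Gad2. Of 24 wells with Rprm at 100 CPM or more and neither Nts nor Calb1 at that level, 25% held Cntnap4. Of 61 wells with Calb1 but not Nts at that level 0% held it, and of 196 wells with Nts but not Sv2c 2.04% did. Of 59 wells with none of Nts, Calb1 and Rprm at that level 10.2% held it. Cntnap3 had a count in 0 of 348 wells, for which the exact upper bound is 1.05%.

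Nts, the neurotensin gene, is high in part of the subiculum, and wells were divided at 100 CPM of it, with 204 wells at or above that level, 144 below it and 65 of all wells between 50 and 200 CPM. A group divided in this way is a range of levels, not a cell type, and the division was chosen after seeing the data. Cntnap5a was found in 70.1% of Nts-high wells (63.3% to 76.3%) and in 36.1% of Nts-low wells (28.3% to 44.5%). After thinning every well to 20000 counts, which left out 8 Nts-low wells and 0 Nts-high wells, the shares were 36.3% and 21.3%. Its mean was 47.1 and 20.4 CPM, higher in Nts-high wells on 3 of 4 plates. The median depth was 116846 counts in Nts-high and 101632 in Nts-low wells.

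Cntn4 was found in 50.5% and 26.4% of these wells, or 34.3% and 12.5% after thinning, although its mean CPM was alike (32.8 and 32.2). A single shallow Nts-low well at 2202 CPM carried much of the lower mean, and with counts pooled over wells the levels were 32.6 CPM (exact 95% Poisson interval 30.4 to 34.9) and 18.0 CPM (15.9 to 20.3). These intervals cover counting error only, not the spread between wells, so they do not show a difference between the groups. The 10 wells with the most Cntn4 held 21.2% of its counts. Cntn5, near its limit in bulk, was found in 27.9% and 11.8% of wells, or 17.2% and 5.15% after thinning. Cntnap1 was found in 81.4% and 60.4%, or 55.9% and 41.2% after thinning. Both of these genes had the higher mean in Nts-high wells on 4 of 4 plates.

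Cntnap2 did not rise with Nts. It was found in 55.9% of Nts-high and 58.3% of Nts-low wells, with means of 54.8 and 63.4 CPM, and it was higher on 2 plates and lower on 2. Cntn1 was found in 100% of Nts-high and 87.5% of Nts-low wells (100% and 89.7% after thinning), with means of 667.2 and 646.9 CPM, while counts pooled over wells gave 684.7 and 724.6 CPM. The 59 wells with none of Nts, Calb1 and Rprm at 100 CPM are among the Nts-low wells, and there Cntn1 was found in 69.5% and the pyramidal marker Slc17a7 in 64.4%. In the other 4 groups, Cntn1 was found in 100% and Slc17a7 in 98.4% to 100% of wells. The part of these 59 wells in the lower shares was not tested. Cntnap4 had the reverse pattern, in 1.96% of Nts-high and 8.33% of Nts-low wells. Its mean was lower in Nts-high wells on 3 of 4 plates, and the remaining plate had no count of it. Without plate Q8 its means were 0.996 and 3.82 CPM, in place of 1.30 and 10.29 CPM. In all, 8 of the 10 members had the higher mean in Nts-high wells, 6 did after thinning, and 5 did when the division was set at 500 CPM. The same count was not made over all genes, so these counts have no background to be read against. The 8 include Cntn1, Cntn3 (9.41 and 8.405 CPM) and Cntn4 (32.84 and 32.16 CPM), whose means differed little. Wells of 1 pooled sample give no test of these differences.

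**Figure D4:**
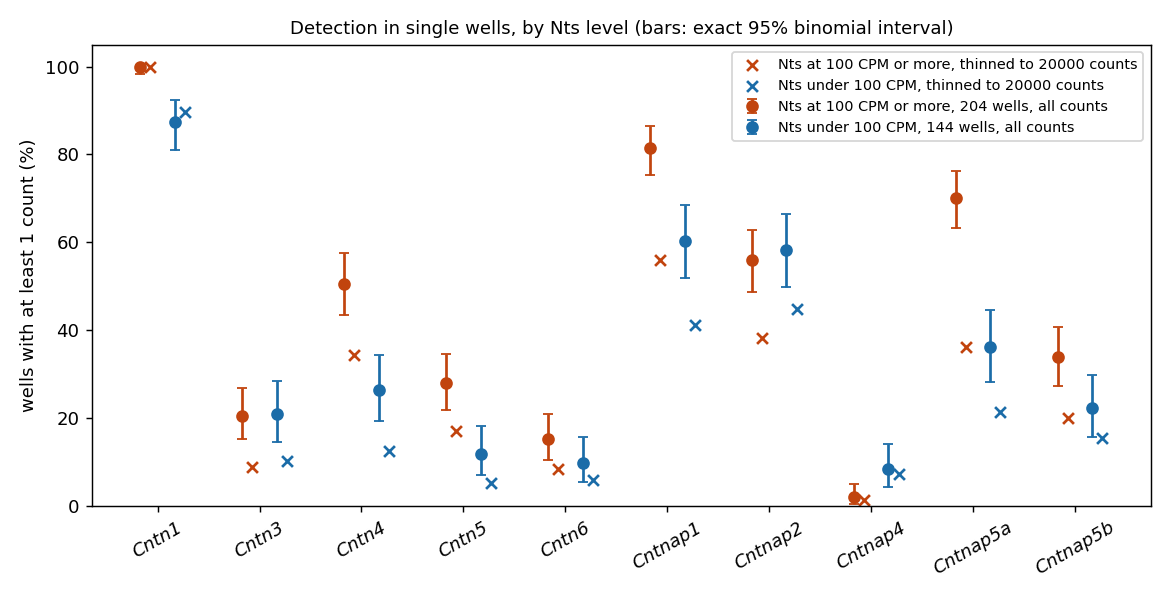
Share of wells with at least 1 count (y axis, percent) for each member in 204 Nts-high wells (orange) and 144 Nts-low wells (blue), with exact 95% binomial intervals; crosses are the shares after thinning to 20000 counts. Cntnap5a, Cntn4, Cntn5 and Cntnap1 are detected more often in Nts-high wells before and after thinning, and Cntnap4 less often.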

How the data were processed

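RNA was measured in 12 bulk libraries and in single wells. Bulk values came from Cuffdiff output by read group, per the file headers. Its raw fragments are expected counts that the authors deposited without normalization, and 8.51% of those above 0 were not whole, so they were rounded. The authors also deposited FPKM values, scaled per library. For single wells the authors deposited unscaled whole counts. The genome build was mm9, per the submitters' processing notes; the aligner and annotation release are not given in the sources used here. The bulk table numbers replicates from 0 and the labels from 1, and library names here assume that both run in one order.

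The 92 spike-in rows (0 fragments) were left out, and 0 columns belonged to other samples. Symbols came from a later mouse annotation by Ensembl identifier. The filterByExpr filter of edgeR 4.0.16 (smallest count 10) left 13916 genes. Libraries were scaled by TMM, and 1 quasi-likelihood fit over the 12 libraries gave each contrast, with Benjamini-Hochberg adjustment over all genes and a threshold of 0.05. Every adjusted p is from this fit unless limma 3.58.1 or DESeq2 1.42.0 is named. Bulk levels are CPM computed here with TMM scaling, except in the quotient of FPKM over CPM, and means are arithmetic. Alternatives were other scalings, no filter, DESeq2, limma on log2 FPKM with pseudocounts of 1 and 0.1, a replicate block, and leaving out libraries. The edgeR and limma steps were tested on simulated data.

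The rule for named genes took all 10 members, Cntn2, Cntnap3 and Cntnap5c, up to 4 genes of lowest adjusted p in each partner list, and 3 genes of most similar pattern for each of the 2 members with the lowest p in the 4-group test. Chl1, Tnr and Ptprg were named after their values were seen. Members, lists and the comparison of NA and PFC against RSC and VHN were chosen with earlier results of these data known. Wells with fewer than 1000 detected genes were dropped and doublets were not called. The planned division of wells by another gene is not analysed here, and Nts took its place after the data were seen. Promoters came from RefSeq tables of build GRCm38.p6, whose coordinates were not mixed with the bulk data.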

Additional observations from a re-analysis of the deposited data

How the results depend on the processing

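Between NA and PFC together and RSC and VHN together, Cntn1 (log2 fold change 0.66 to 0.94), Cntn4 (-1.62 to -1.31), Cntnap2 (1.29 to 1.71) and Cntnap5a (-1.44 to -1.01) kept their direction and their call in each of the 21 alternative settings run (edgeR, limma or DESeq2). In 1 of these settings, that without the 3 libraries with interneuron markers, RSC replicate 1 was alone in its group. Cntn3 lost its call in 15 of the 21 settings. Cntn6 gained one without PFC replicate 1 (-2.12) and without a filter on low counts (-1.27). The value of Cntn5 ran from -0.60 to 0.14 when single libraries were left out and reversed without NA replicate 3 (0.0545), RSC replicate 1 (0.077) or VHN replicate 1 (0.141). Cntnap4 ran from -0.96 to 0.43 when single libraries were left out, with -1.10 as its lowest value over the 21 settings, and reversed without RSC replicate 3 (0.433) and without the 3 libraries that carried interneuron markers (0.102). The causes were not tested.

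Counts of members moved in the single comparisons. NA against PFC called 1 member, and 0 without scaling beyond library totals, with limma on log2 FPKM at pseudocounts of 1 or 0.1, without the 3 libraries with interneuron markers, without NA replicate 2 and PFC replicate 3 together, or with these 2 populations alone. It called 3 without a filter (2.44% of all genes, in place of 0.438%) and 3 with DESeq2 (3.14%), and 0 to 1 when single libraries were left out. Without the 3 libraries with interneuron markers, RSC replicate 1 was alone in its group, so calls against RSC in that setting are not given. NA against VHN called 4 without a filter, 1 with its 2 populations alone and 1 without VHN replicate 1, in place of 2, with a range of 1 to 3 when single libraries were left out. PFC against VHN called 2 to 5 when single libraries were left out, with 5 without PFC replicate 1, where Cntn6 and Cntnap5b were added, and 2 without PFC replicate 2 or VHN replicate 1. Nts at 500 CPM left 5 members higher in Nts-high wells, and thinning left 6, in place of 8.

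Replicate numbers were not treated as pairs: deviations of libraries with the same number correlated at -0.0261 to 0.0376, over 0.1 in 0 of 18 pairs, and 1 of 12 libraries was most like its own number. With the replicate block, 4 members were called between the pairs of populations in place of 5, Cntn3 being lost. Over all genes that comparison called 1982 genes without the block. Cntn5 and Cntnap4 had few fragments in most libraries, which limits what could be detected for them.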
